A study of Mus musculus with 311 samples.

Results

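The livers at the upper and lower end of the hepatic level of Marco were compared across all other named genes. Marco codes for a class A scavenger receptor of macrophages. The comparison held 154 of the 311 livers of the series. The animals were F2 mice of both sexes from C57BL/6J and C3H/HeJ parents, and all were ApoE null and ate a high-fat Western diet between 8 and 24 weeks of age. Total liver RNA of each animal, labelled with Cy3, was hybridised with a Cy5-labelled pool of all samples' RNA on a 2-color array, so each value is a log10 ratio of the liver to the pool. All arrays formed 1 labelled group, F2 liver, and no sex, genotype at a locus or phenotype was given per animal. The animals are unreplicated, and every liver carries the same Apoe deficiency and diet, so nothing here is measured against a chow-fed or Apoe-competent mouse.

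The livers were chosen by the measured ratios of 2 transcripts. Arrays were first split at a log10 ratio of -0.5 for Eif2s3y, a translation factor gene on the Y chromosome, which left 155 Eif2s3y-high and 156 Eif2s3y-low animals with no value between -0.219 and -0.875. Within each set the arrays were ranked by Marco, and the 38 highest and 38 lowest of 154 Eif2s3y-high animals and the 39 highest and 39 lowest of 156 Eif2s3y-low animals were taken. These are called the Marco-high and the Marco-low livers, and the 156 animals between them the middle livers. The remaining Eif2s3y-high animal had no Marco value. In the 155 Eif2s3y-high animals the median Eif2s3y ratio was 0.358, and a transcript carried by 155 of 311 pooled animals would give 0.302 if the ratio is liver over pool in log10 units.

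Kupffer cells are the resident macrophages of the liver. They sit in the sinusoids and clear bacteria, endotoxin, modified lipoproteins and aged red cells from portal blood. Marco binds bacteria and other polyanionic particles and in liver is found mainly on Kupffer cells near the portal tracts. Timd4 (a phosphatidylserine receptor), Clec4f (a C-type lectin) and Vsig4 (a complement receptor) mark resident Kupffer cells, whereas Cd68, Adgre1 (F4/80), Csf1r and Ctss are shared by macrophages of many origins. In bulk RNA, fewer cells of a type cannot be told apart from less RNA per cell.

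Promoters of the receptor that ranked the livers and of 3 resident Kupffer cell genes are shown for comparison, from 250 bases before to 50 after the annotated start in RefSeq (GRCm38.p6). Capitals mark matches to GAGGAA, a core of the macrophage factor PU.1, and to AGGTCA, the core bound by nuclear receptors such as LXR, each on either strand. GTGGGAA, a core of the Notch factor RBPJ, was also searched.
Marco promoter, chr1:120504975-120505274, minus strand: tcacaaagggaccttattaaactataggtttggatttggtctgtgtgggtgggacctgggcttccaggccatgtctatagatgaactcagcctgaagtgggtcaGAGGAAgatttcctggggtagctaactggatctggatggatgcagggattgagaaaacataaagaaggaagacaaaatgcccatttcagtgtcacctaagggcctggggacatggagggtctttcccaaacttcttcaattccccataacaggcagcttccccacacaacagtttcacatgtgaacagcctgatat
Clec4f promoter, chr6:83656067-83656366, minus strand: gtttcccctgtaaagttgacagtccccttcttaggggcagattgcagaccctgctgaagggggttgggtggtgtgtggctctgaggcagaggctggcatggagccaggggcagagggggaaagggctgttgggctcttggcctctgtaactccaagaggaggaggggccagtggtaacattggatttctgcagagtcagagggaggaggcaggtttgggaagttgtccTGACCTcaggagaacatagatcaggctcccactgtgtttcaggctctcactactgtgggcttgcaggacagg
Timd4 promoter, chr11:46810549-46810848, plus strand: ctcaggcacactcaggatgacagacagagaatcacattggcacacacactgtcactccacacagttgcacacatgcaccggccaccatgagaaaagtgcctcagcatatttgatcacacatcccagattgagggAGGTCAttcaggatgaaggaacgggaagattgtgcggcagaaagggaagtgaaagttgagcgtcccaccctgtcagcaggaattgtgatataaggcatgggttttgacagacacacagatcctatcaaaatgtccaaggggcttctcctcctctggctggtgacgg
Vsig4 promoter, chrX:96293389-96293688, minus strand: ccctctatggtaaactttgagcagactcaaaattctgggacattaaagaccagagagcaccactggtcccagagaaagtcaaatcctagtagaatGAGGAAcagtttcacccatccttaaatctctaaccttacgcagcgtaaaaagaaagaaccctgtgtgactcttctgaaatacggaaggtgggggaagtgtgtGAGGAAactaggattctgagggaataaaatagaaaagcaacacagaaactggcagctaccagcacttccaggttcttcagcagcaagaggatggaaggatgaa
The Marco window held 1 PU.1 core, the Vsig4 window 2, and the Clec4f and Timd4 windows 1 nuclear receptor core each, and none of the 4 held GTGGGAA. Among 32851 promoters of the same length 28.3% held GAGGAA, 16.3% AGGTCA and 6.38% GTGGGAA, so the matches describe the letters and mark no bound site.

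The Marco ratios of the chosen livers are a description, because they chose the groups. In Eif2s3y-high animals the log10 ratio ran between -0.279 and 1.08 with a median of -0.0535 in Marco-high livers, and between -1.05 and -0.655 with a median of -0.763 in Marco-low livers. Among Eif2s3y-low animals the ratio ran between 0.207 and 1.06 with a median of 0.491 in Marco-high livers, and between -0.711 and -0.255 with a median of -0.407 in Marco-low livers. The mean ratio was 6.89-fold and 8.21-fold higher in the Marco-high livers of Eif2s3y-high and Eif2s3y-low animals.

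Marco differed between the sets as well. Eif2s3y-high animals had on average 0.371 times the level of Eif2s3y-low animals, and the Marco-high livers of Eif2s3y-high animals had a median near that of the middle livers of Eif2s3y-low animals (-0.0372). Next to the limits of the Marco-high livers lay arrays at -0.286 (against -0.279 inside) and at 0.188 (against 0.207 inside), and next to those of the Marco-low livers arrays at -0.645 (against -0.655) and -0.2545 (against -0.2547). The upper tails were long, with 4 Eif2s3y-high and 18 Eif2s3y-low livers above a log10 ratio of 0.5.

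**Figure D1:**
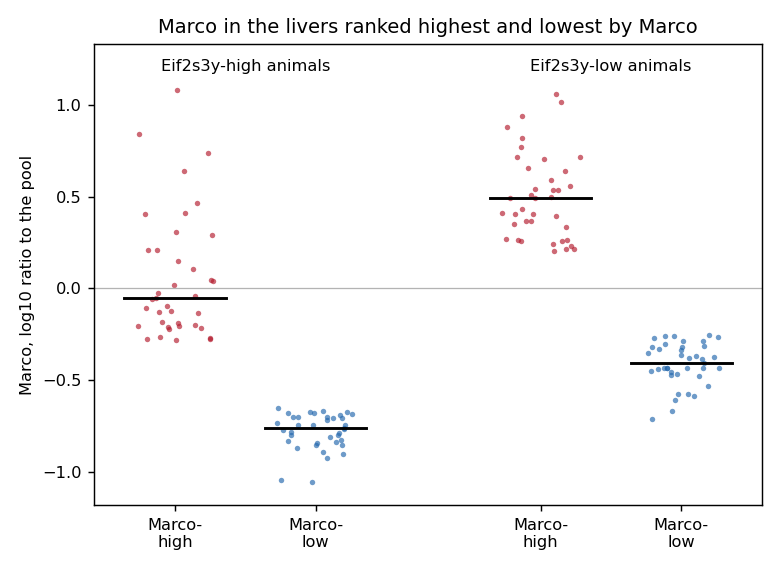
Marco as a log10 ratio to the pool (vertical axis) in the Marco-high and Marco-low livers of Eif2s3y-high animals (38 each) and Eif2s3y-low animals (39 each). Each point is 1 liver and each bar a median (-0.0535 and -0.763, then 0.491 and -0.407). The tail above 0.5 holds 4 livers of the Eif2s3y-high and 18 of the Eif2s3y-low animals.

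Technical measures of the arrays were compared between Marco-high and Marco-low livers. Over 8 two-sided permutation tests, of missing values, array SD, array median and F2 number in each set, the smallest p-values were 0.00946 for the array median in Eif2s3y-high animals (median of the array medians 0.00451 in Marco-high and 0.00295 in Marco-low livers) and 0.0165 for the F2 number in Eif2s3y-low animals (median 142 in Marco-high and 222 in Marco-low livers), each 0.066 after Benjamini-Hochberg adjustment. The F2 number is the animal's number in the labels. In Eif2s3y-high animals the Eif2s3y ratio ran between -0.219 and 0.527, and its lower values came in runs of neighbouring F2 numbers. Such values, as 0.0889 in animal 146 and 0.0133 in animal 197, were more frequent in Marco-high than in Marco-low livers. The part of this imbalance in the differences below was not tested. Array medians of the series lay between -0.0218 and 0.0172, 0.745% of values were missing, and 11 arrays of the series carried pancreas or muscle transcripts at a high level. Apoe showed folds of 1.02 and 0.947 between Marco-high and Marco-low livers, neither called.

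Many genes differed between the livers, by small amounts. In Eif2s3y-high animals 681 of 11386 genes (5.98%) passed a limma test at a Benjamini-Hochberg adjusted p of 0.05, 284 higher (2.49%) and 397 lower (3.49%) in Marco-high livers. In Eif2s3y-low animals 353 genes (3.1%) passed, 218 higher (1.91%) and 135 lower (1.19%). By 1.5-fold or more, 4 of these were higher (0.0351%) and 27 lower (0.237%) in Eif2s3y-high animals, and 3 higher and 3 lower (0.0263% each) in Eif2s3y-low animals. The median fold over all genes was 1.01 in Eif2s3y-high and 1.0 in Eif2s3y-low animals.

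The sets share no animal, so a call in 1 set was measured anew in the other. A total of 40 genes (0.351%) were higher and 35 (0.307%) lower in both sets, 75 in all (0.659%), and 2 (0.0176%) were called in opposite directions. The 40 were 14.1% of the higher calls of Eif2s3y-high animals and 18.3% of those of Eif2s3y-low animals, and the 35 were 8.82% and 25.9% of the lower calls. Of all genes, the other set called 1.91% and 2.49% higher, and 1.19% and 3.49% lower, in the same order. Of all genes called in Eif2s3y-high animals, 255 of 284 higher and 366 of 397 lower ones had the same sign in Eif2s3y-low animals, and of those called in Eif2s3y-low animals, 197 of 218 and 118 of 135 had the same sign in Eif2s3y-high animals. Over all genes 51.6% lay above 1 in Eif2s3y-low and 55% in Eif2s3y-high animals.

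**Figure D2:**
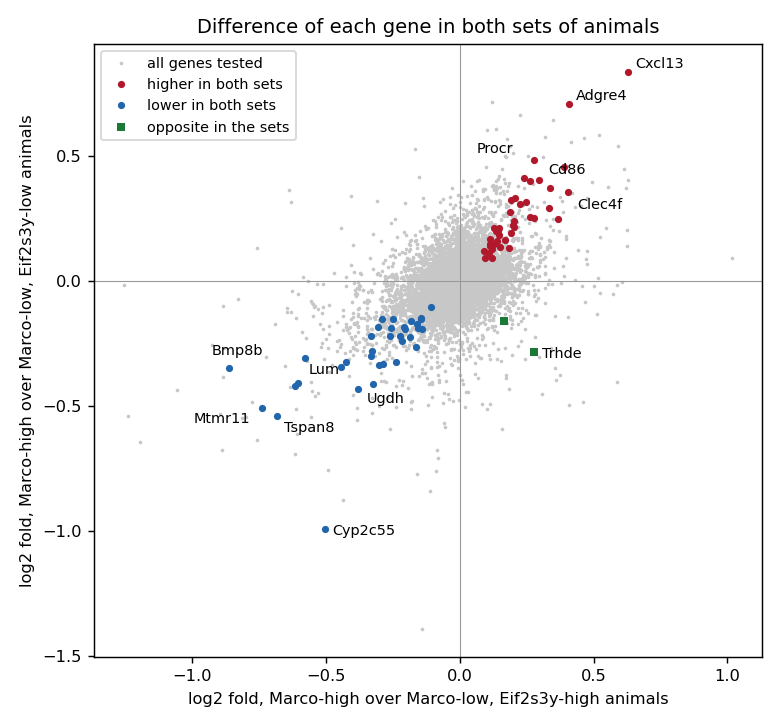
Log2 fold of each gene, Marco-high over Marco-low livers, in Eif2s3y-high animals (horizontal axis) and Eif2s3y-low animals (vertical axis). Gray points are all 11386 genes tested, red ones the 40 higher in both sets, blue ones the 35 lower in both, and green squares the 2 called in opposite directions. Cxcl13 lies farthest up among the red genes and Bmp8b and Cyp2c55 farthest out among the blue.

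Resident Kupffer cell genes were higher in Marco-high livers in part. Of 17 measured genes of this kind, 2 were called higher in Eif2s3y-high animals (2.49% of all genes were) and 5 in Eif2s3y-low animals (1.91% of all genes were), with none lower, and 1 was higher in both (0.351% of all genes were). The median fold of the list was 1.07 in Eif2s3y-high animals (1.01 over all genes) and 1.12 in Eif2s3y-low animals (1.0 over all genes), and 15 and 16 of the 17 genes lay above 1 (55% and 51.6% of all genes did). The gene called in both sets was Clec4f, a galactose-binding lectin found on mouse Kupffer cells. Without the 22 livers above a Marco ratio of 0.5, 2 and 0 of the 17 were called higher, beside 183 and 4 of all 11386 genes.

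Clec4f had log10 ratios of -0.464, -0.0557 and 0.178 (lowest, median, highest) in the Marco-high livers of Eif2s3y-high animals, against -0.471, -0.226 and 0.0419 in their Marco-low livers. In Eif2s3y-low animals the values were -0.261, 0.139 and 0.392 in Marco-high livers, against -0.377, 0.0138 and 0.178 in Marco-low livers. The groups overlapped widely in both sets, and the medians were higher with Marco in each. The folds were 1.32 (95% interval 1.15 to 1.52, limma adjusted p = 0.0108) and 1.28 (1.12 to 1.46, adjusted p = 0.0282). Without the 11 arrays with pancreas or muscle transcripts, and with the livers ranked anew, the fold in Eif2s3y-low animals was 1.23 and its adjusted p 0.0724. In the middle livers, which took no part in the comparison, Clec4f had a slope of 0.19 log10 units per log10 unit of Marco (0.04 to 0.33, unadjusted p = 0.012, adjusted p = 0.225).

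For Timd4 the answer depended on the probe. The probe read by the rule had ratios of -0.192, -0.00401 and 0.322 (lowest, median, highest) in the Marco-high livers of Eif2s3y-high animals, against -0.343, -0.017 and 0.22 in their Marco-low livers, a fold of 1.10 (0.985 to 1.22, adjusted p = 0.323). In Eif2s3y-low animals this probe had -0.453, 0.0902 and 0.429, against -0.284, 0.0176 and 0.162, a fold of 1.17 (1.04 to 1.33, adjusted p = 0.123). Neither passed the test. The other Timd4 probe varied more (SD 0.331 over all arrays) and gave folds of 1.48 (1.04 to 2.12, adjusted p = 0.189) and 1.99 (1.5 to 2.64, adjusted p = 0.00405) when it was read in its place. On that probe the Marco-high livers of Eif2s3y-low animals lay between -0.577 and 0.79 with a median of 0.241, against -0.777 to 0.289 and a median of -0.0136 in Marco-low livers.

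Of the other resident genes 5 were called, each in 1 set, and the rest in neither. Vsig4, which takes up complement-coated bacteria, had folds of 1.21 (adjusted p = 0.0873) and 1.23 (adjusted p = 0.0229) in Eif2s3y-high and Eif2s3y-low animals, and its unread probe 1.17 and 1.12. Its slope in the middle livers was 0.29 (0.12 to 0.47, unadjusted p = 0.000899). Nr1h3, the nuclear receptor LXR alpha that Kupffer cells need for their identity, had folds of 1.08 (adjusted p = 0.0141) and 1.07 (adjusted p = 0.0867). Spic, a transcription factor of macrophages that recycle heme iron, had 1.11 (adjusted p = 0.21) and 1.30 (adjusted p = 0.0114).

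C6, a terminal complement component, had folds of 1.13 and 1.12 (adjusted p = 0.12 and 0.00941), and Irf7, a regulator of interferon genes, 1.09 and 1.21 (adjusted p = 0.37 and 0.0177). Cd5l, a secreted scavenger protein of macrophages, had folds of 1.01 and 1.2 (adjusted p = 0.943 and 0.0623). Cd163, the hemoglobin scavenger receptor, had the highest fold of the list in Eif2s3y-high animals, 1.44 (1.11 to 1.86, adjusted p = 0.0743), and 0.967 (0.71 to 1.32) in Eif2s3y-low animals. Hmox1, which breaks down heme, and Slc40a1, the iron exporter, were not called in either set, with folds of 1.02 and 1.0 in Eif2s3y-high and 1.12 and 1.07 in Eif2s3y-low animals.

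General macrophage genes were called with Marco about as often as all genes in Eif2s3y-high animals, and more often in Eif2s3y-low animals. Without the livers highest in Marco, few genes of any kind were called in Eif2s3y-low animals. Of 38 measured genes 1 was called higher in Eif2s3y-high animals (2.49% of all genes were) and 10 in Eif2s3y-low animals (1.91% of all genes were), with none lower in either set. Under other settings up to 4 were called lower in Eif2s3y-high animals and 0 in Eif2s3y-low animals. The 4 came with wider outer groups (51 livers each), where 960 of all 11386 genes were lower. The median fold of the list was 0.980 in Eif2s3y-high animals (1.01 over all genes) and 1.10 in Eif2s3y-low animals (1.0 over all genes). In the same order, 15 and 33 of the 38 genes lay above 1 (55% and 51.6% of all genes did). The list thus lay slightly below all genes in Eif2s3y-high animals and above them in Eif2s3y-low animals. Cd86, the costimulatory ligand of antigen-presenting cells, was the 1 gene called in both sets.

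Cd86 had ratios of -0.27, -0.0436 and 0.273 (lowest, median, highest) in the Marco-high livers of Eif2s3y-high animals, against -0.337, -0.134 and 0.0623 in their Marco-low livers, a fold of 1.23 (1.10 to 1.37, limma adjusted p = 0.0176). The values in Eif2s3y-low animals were -0.159, 0.123 and 0.439, against -0.236, 0.0291 and 0.263, a fold of 1.32 (1.17 to 1.5, adjusted p = 0.00869). The ranges overlapped, and the highest livers were Marco-high ones in both sets. Cd68, the lysosomal protein often used to count macrophages, had folds of 0.967 (0.904 to 1.03) and 0.981 (0.904 to 1.07), with medians of -0.0365 in Marco-high and -0.0335 in Marco-low livers of Eif2s3y-high animals and 0.0375 and 0.0219 in those of Eif2s3y-low animals.

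Adgre1 and Csf1r, the receptor for the macrophage growth factors, were called in Eif2s3y-low animals. Adgre1 had folds of 1.07 (0.939 to 1.22, adjusted p = 0.59) and 1.37 (1.17 to 1.61, adjusted p = 0.0173) in Eif2s3y-high and Eif2s3y-low animals. Csf1r had folds of 1.09 (adjusted p = 0.383) and 1.30 (adjusted p = 0.00199). The other calls in Eif2s3y-low animals were the protease genes Lgmn (1.16) and Ctsc (1.21), the complement C1q genes C1qb (1.22) and C1qc (1.28), the Fc receptor genes Fcgr4 (1.26) and Fcer1g (1.23), and Spi1 (1.08), which codes for PU.1.

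Ctss, the cathepsin of antigen-processing cells, had folds of 0.902 (0.79 to 1.03) and 1.07 (0.946 to 1.22), and Lyz2, the macrophage lysozyme, 0.922 and 0.963, none of them called. Cd14, the endotoxin coreceptor, had folds of 0.759 in Eif2s3y-high and 1.10 in Eif2s3y-low animals. The difference between the sets reached an unadjusted p under 0.05 in 15 of the 38 genes and an adjusted one in 0 (8.79% and 0.0263% of all genes), so a call in 1 set is not shown to be particular to it. Without the 22 livers above a Marco ratio of 0.5, and with the rest ranked anew, 0 of the 38 genes were called in Eif2s3y-low animals (median fold 1.05) and 1 in Eif2s3y-high animals (median fold 0.965). Of all 11386 genes, 4 in Eif2s3y-low and 183 in Eif2s3y-high animals were then called higher. The loss of calls in Eif2s3y-low animals was thus not particular to this list.

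**Figure D3:**
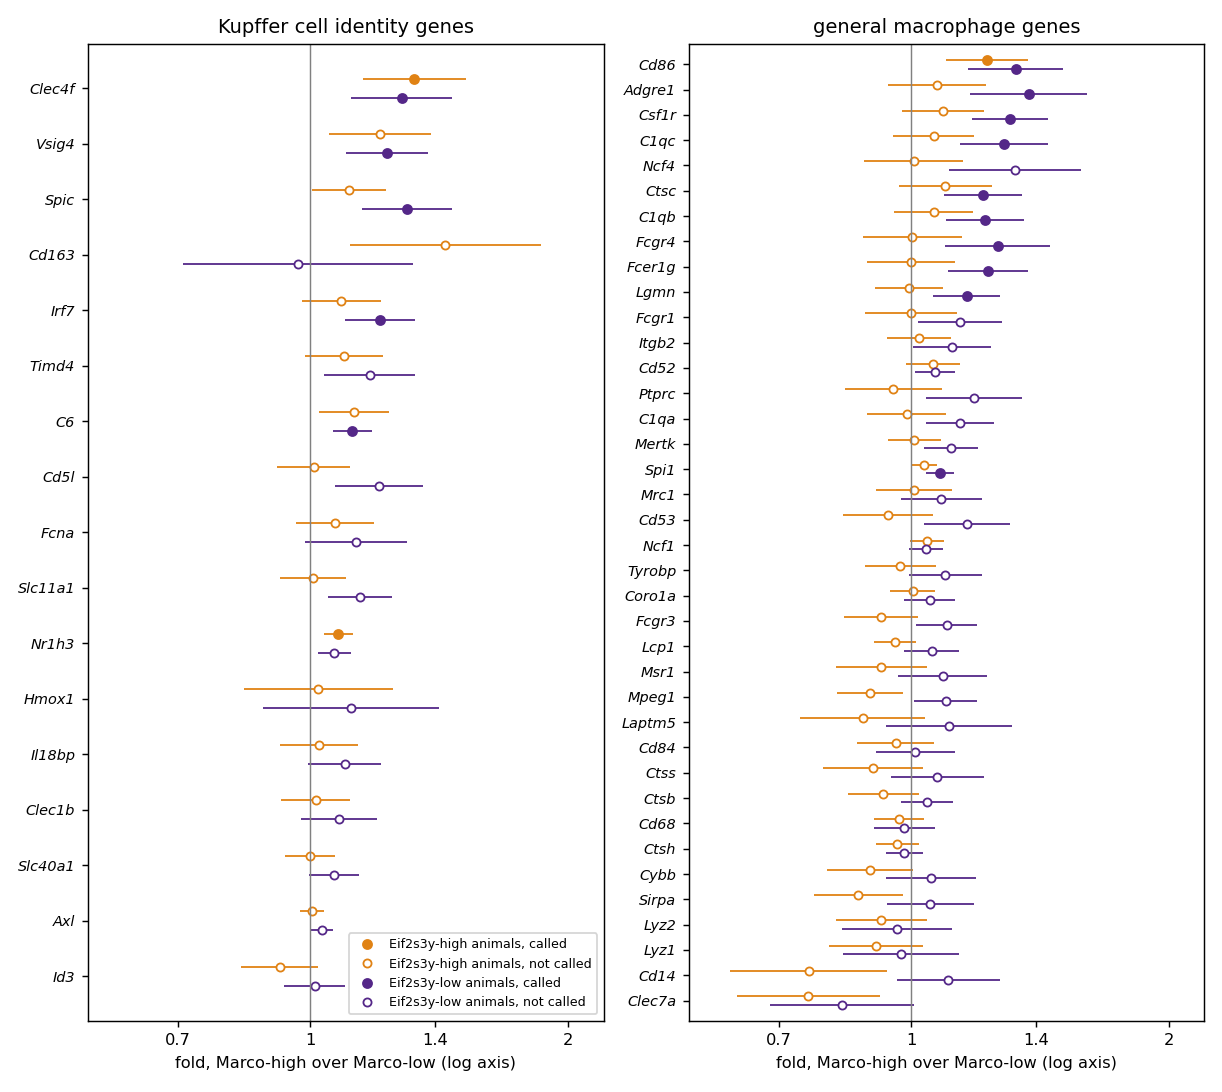
Fold, Marco-high over Marco-low livers, on a log axis, of the 17 resident Kupffer cell genes (left) and the 38 general macrophage genes (right), ordered by mean difference. Orange marks Eif2s3y-high and purple Eif2s3y-low animals, lines are 95% intervals, and filled points are called. Filled points number 2 and 5 on the left, and 1 and 10 on the right, where most orange points lie below 1.

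Among the 40 genes higher in both sets, the chemokine Cxcl13 had the largest fold. It attracts B cells and is made in the spleen and by macrophages of body cavities, besides other sources. Cxcl13 had ratios of -0.242, -0.0843 and 0.941 (lowest, median, highest) in the Marco-high livers of Eif2s3y-high animals, against -0.333, -0.146 and 0.274 in their Marco-low livers, a fold of 1.55 (1.23 to 1.94, limma adjusted p = 0.0146). Eif2s3y-low animals had -0.261, 0.0547 and 0.857, against -0.328, -0.114 and 0.486, a fold of 1.79 (1.4 to 2.28, adjusted p = 0.005). The difference of the medians was smaller than the fold, and the highest Cxcl13 values lay in Marco-high livers. No gene of the B and plasma cell list, 11 measured, was called in either set.

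Further genes were higher in both sets. Adgre4, an adhesion receptor of macrophages related to F4/80, had folds of 1.33 and 1.63 (adjusted p = 0.0452 and 0.00199). Procr, the endothelial protein C receptor, had 1.21 and 1.4 (adjusted p = 0.0121 and 6.89e-05), and Icos, a costimulatory receptor of activated T cells, 1.19 and 1.24 (adjusted p = 0.000557 and 6.22e-05). F7, the liver-made coagulation factor VII, had 1.26 and 1.23 (adjusted p = 0.00574 and 0.0234), and Nr1i3, the hepatocyte drug sensor CAR, 1.29 and 1.19 (adjusted p = 0.000557 and 0.019).

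In the Nr1i3 values all Marco-low livers of Eif2s3y-high animals lay between -0.352 and -0.051, with a median of -0.174, and the Marco-high livers between -0.196 and 0.198, with a median of -0.0686. Icos ran between -0.0708 and 0.262 in Marco-high livers and between -0.121 and 0.0644 in Marco-low livers of the same set, so the groups overlapped for both genes. Ms4a8a, a tetraspanning membrane protein gene, had folds of 1.31 and 1.37, and Pram1, an adaptor of myeloid cells, 1.18 and 1.33. Tfr2, the iron sensor of hepatocytes, was also called in both sets, at 1.15 and 1.16.

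**Figure D4:**
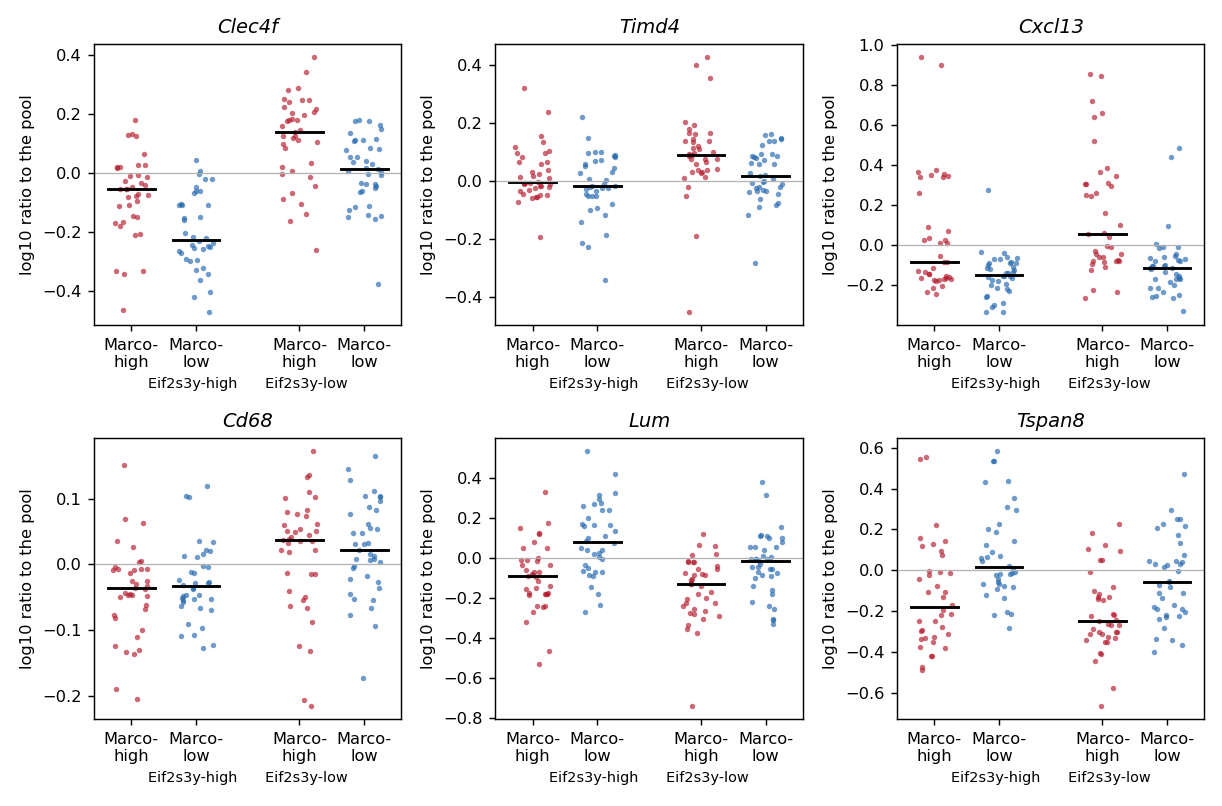
Log10 ratio to the pool (vertical axes) of 6 genes in each Marco-high (red) and Marco-low (blue) liver of Eif2s3y-high animals (left pair) and Eif2s3y-low animals (right pair), with medians as bars. Clec4f and Cxcl13 are higher and Lum and Tspan8 lower in Marco-high livers of both sets, while Cd68 and the read Timd4 probe were not called, and all groups overlap.

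Some genes of macrophages that move in from blood or take up lipid were lower in Marco-high livers of Eif2s3y-high animals. Of 16 measured genes 6 were called lower in Eif2s3y-high animals (3.49% of all genes were) and 1 in Eif2s3y-low animals (1.19% of all genes were), with none higher and median folds of 0.844 and 0.986. Trem2, the lipid receptor of such macrophages, had folds of 0.719 (adjusted p = 0.0435) and 0.794 (adjusted p = 0.132), and Mmp12, the macrophage elastase, 0.654 (adjusted p = 0.047) and 0.701 (adjusted p = 0.137). Cd9 and Cd63, both tetraspanins, had 0.789 and 0.707 in Eif2s3y-high animals and 0.970 and 0.852 in Eif2s3y-low animals. Ccr2, the receptor that brings monocytes out of the marrow, had 0.844 and 0.916.

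Lgals1, the lectin galectin 1 of many mesenchymal and immune cells, was the member called lower in both sets, at 0.744 (adjusted p = 0.0155) and 0.800 (adjusted p = 0.0299). Ccl2, the ligand of Ccr2, was lower in Eif2s3y-high animals at 0.675 (0.553 to 0.824, adjusted p = 0.0125) and stood at 1.0 (0.823 to 1.22) in Eif2s3y-low animals. The mean level of the 16 genes per liver ran between -0.286 and 0.154 in Marco-high and between -0.142 and 0.225 in Marco-low livers of Eif2s3y-high animals, so the groups overlapped here as well.

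Some matrix and bile duct genes were lower in Marco-high livers. Of 25 measured genes of stellate cells and matrix, 12 were lower in the Marco-high livers of Eif2s3y-high and 4 in those of Eif2s3y-low animals, 2 of them in both (3.49%, 1.19% and 0.307% of all genes), with median folds of 0.827 and 0.908. Of 10 bile duct genes 4 and 1 were lower, beside the same 3.49% and 1.19% of all genes, with median folds of 0.881 and 0.898. No gene of either list was higher. Lgals1, counted above, is a member of the matrix list as well. The mean log10 ratio of the 25 matrix genes per liver ran between -0.197 and 0.17 in Marco-high and between -0.0871 and 0.233 in Marco-low livers of Eif2s3y-high animals, and between -0.313 and 0.0446 in Marco-high and between -0.186 and 0.12 in Marco-low livers of Eif2s3y-low animals. That of the 10 bile duct genes ran between -0.213 and 0.16 in Marco-high and between -0.149 and 0.202 in Marco-low livers of Eif2s3y-high animals, and between -0.132 and 0.132 in Marco-high and between -0.13 and 0.26 in Marco-low livers of Eif2s3y-low animals. The groups overlapped, and the part of these cells in the differences of macrophage genes was not tested.

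Lum, a proteoglycan that binds collagen fibrils, had ratios of -0.528, -0.0872 and 0.332 (lowest, median, highest) in the Marco-high livers of Eif2s3y-high animals, against -0.267, 0.0809 and 0.535 in their Marco-low livers, a fold of 0.657 (0.549 to 0.787, limma adjusted p = 0.00475). The ratios in Eif2s3y-low animals were -0.74, -0.131 and 0.121, against -0.33, -0.0142 and 0.382, a fold of 0.754 (0.643 to 0.883, adjusted p = 0.031). The Marco-high livers held the lowest values in both sets. The collagenase gene Mmp13 had folds of 0.584 (adjusted p = 0.0108) and 0.716 (adjusted p = 0.12), and Lox, which crosslinks collagen, 0.680 (adjusted p = 0.0159) and 0.947 (adjusted p = 0.768).

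Tspan8, a tetraspanin of bile duct and gut epithelium, had ratios of -0.489, -0.182 and 0.555 in the Marco-high livers of Eif2s3y-high animals, against -0.285, 0.0135 and 0.584 in their Marco-low livers, a fold of 0.622 (0.486 to 0.796, adjusted p = 0.0141). In Eif2s3y-low animals it had -0.668, -0.251 and 0.226, against -0.403, -0.0577 and 0.471, a fold of 0.688 (0.559 to 0.846, adjusted p = 0.029). Krt8, Krt18 and Cftr, keratins and the chloride channel of the duct, were lower in Eif2s3y-high animals, at 0.813, 0.884 and 0.747. Without the 11 arrays with pancreas or muscle transcripts the folds in Eif2s3y-low animals were 0.767 for Lum (adjusted p = 0.068) and 0.737 for Tspan8 (adjusted p = 0.1), and the number of genes called the same way in both sets was 43.

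Further genes were lower in both sets. Cyp2c55, an inducible cytochrome P450, had ratios of -0.749, -0.121 and 0.159 (lowest, median, highest) in the Marco-high livers of Eif2s3y-high animals, against -0.443, 0.0181 and 0.568 in their Marco-low livers, and a fold of 0.705 (adjusted p = 0.0346). In Eif2s3y-low animals it had -1.16, -0.13 and 0.32, against -0.423, 0.105 and 0.762, and a fold of 0.503 (adjusted p = 0.00424). Ugdh, which makes the sugar acid used for glucuronides and matrix, had folds of 0.767 and 0.742 (adjusted p = 0.000557 and 0.00199).

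Bmp8b, a growth factor of the BMP family, had folds of 0.550 and 0.786 (adjusted p = 0.00154 and 0.0347). Mtmr11, a myotubularin-related protein gene, had 0.599 and 0.703 (adjusted p = 0.00729 and 0.0454), and Tubb2a, a beta tubulin, 0.670 and 0.807 (adjusted p = 0.00748 and 0.0464). These 3 were lower in both sets, by more in Eif2s3y-high animals in the estimates, but the difference between the sets did not pass the adjusted test for any of them (adjusted p 0.411, 0.794 and 0.636).

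The middle livers gave a measure in animals not used above. Of the 40 genes higher in both sets 39 had a positive slope on Marco there (55.3% of all genes did), and 24 an unadjusted p under 0.05 (7.85% of all genes were positive at that level). Of the 35 lower genes 35 had a negative slope, and 28 an unadjusted p under 0.05 (6.66% of all genes were negative at that level). None of the 75 passed the adjusted test, and the 1 gene that did (0.00878% of all genes) was Ppp2r2d, a phosphatase subunit gene named after its values were seen, with a slope of -0.22 (adjusted p = 0.00575). F7 had a slope of 0.27 (0.14 to 0.39, unadjusted p = 3.28e-05), Icos 0.15 (0.07 to 0.23, unadjusted p = 0.000126), Bmp8b -0.53 (-0.78 to -0.27, unadjusted p = 6.66e-05) and Mtmr11 -0.59 (-0.90 to -0.27, unadjusted p = 0.000347).

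A few innate response genes were higher in the Marco-high livers of Eif2s3y-low animals. Of 25 measured genes of endotoxin sensing and its NF-kB response, 0 were called higher in Eif2s3y-high animals, where Ccl2 was lower, and 5 in Eif2s3y-low animals, beside 2.49% of all genes higher and 3.49% lower in the Eif2s3y-high set and 1.91% higher in the Eif2s3y-low set. The median folds were 0.988 and 1.10. C3H/HeJ mice carry a defective Tlr4, the endotoxin receptor, so F2 animals differ in it, but no genotype was given. Tlr2, the lipopeptide receptor, had folds of 0.982 and 1.23 (adjusted p = 0.893 and 0.0123) in Eif2s3y-high and Eif2s3y-low animals. The cytokine genes Tnf and Il1b had 1.05 and 1.04 in Eif2s3y-high animals and 1.32 and 1.32 in Eif2s3y-low animals (adjusted p = 0.013 and 0.0135), and Irak3 and Socs3, brakes on such signals, 1.14 and 1.19 in Eif2s3y-low animals.

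Of 28 interferon response genes 1 was higher in Eif2s3y-high animals, the immunoproteasome gene Psmb8 at 1.15, and 5 in Eif2s3y-low animals, with median folds of 1.01 and 1.08. For these and the next 2 lists the shares of all genes called higher were 2.49% in Eif2s3y-high and 1.91% in Eif2s3y-low animals. The 5 were Irf7, counted above among the resident Kupffer cell genes too, the regulator Irf1 at 1.14, and the GTPase genes Ifi47, Gbp3 and Igtp at 1.21, 1.28 and 1.33. Of 17 acute phase genes, Apcs (serum amyloid P, 1.43) and Itih4 (1.27) were higher in Eif2s3y-low animals and 0 in Eif2s3y-high animals, with list medians of 1.23 and 0.998. Of 16 complement and pentraxin genes 1 was higher in Eif2s3y-high animals, Masp2, a protease of the lectin pathway, and 4 in Eif2s3y-low animals, namely C1qb, C1qc, C6 and Vsig4. All of these 4 are counted above as well, C1qb and C1qc as general macrophage and C6 and Vsig4 as Kupffer cell genes.

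Few other scavenger receptors were called. Of 15 measured members 0 were called in Eif2s3y-high animals (5.98% of all genes were) and 1 in Eif2s3y-low animals (3.1% of all genes were), Lrp1, the remnant lipoprotein receptor, with folds of 1.11 (adjusted p = 0.0551) and 1.19 (adjusted p = 0.0365). Msr1, another class A receptor of macrophages, had 0.922 (adjusted p = 0.474) and 1.09 (adjusted p = 0.463), and Mrc1, the mannose receptor, 1.01 and 1.08. Cd36, a class B receptor for fatty acids and oxidised LDL, had 0.785 and 0.875 (adjusted p = 0.0881 and 0.295).

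Some T and NK cell genes were called, and few genes of other immune and liver cells. Over all genes 2.49% were higher and 3.49% lower in Eif2s3y-high animals, and 1.91% higher and 1.19% lower in Eif2s3y-low animals. Of 18 T and NK cell genes, Cd3e, Cd8a and Zap70 were higher in Eif2s3y-high animals (1.09, 1.17 and 1.13) and Cd3g and Gzmb in Eif2s3y-low animals (1.28 and 1.29). The median folds of the 18 were 1.06 and 1.07, and 16 and 13 of them lay above 1 (55% and 51.6% of all genes did). None of 15 neutrophil genes was called, although 15 of 15 had a fold above 1 in Eif2s3y-low animals, with a median fold of 1.19. Of 18 endothelial genes Vwf was lower in Eif2s3y-high animals at 0.823, of 7 dendritic cell genes Flt3 at 0.844, and of 9 class II genes H2-Eb1 at 0.762. None of 13 hepatocyte genes was called. The part of these cell types in the other differences was not tested.

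Most of the called genes of fatty acid synthesis and drug metabolism were lower in Marco-high livers. Of all genes 3.49% were lower and 2.49% higher in Eif2s3y-high animals, and 1.19% lower and 1.91% higher in Eif2s3y-low animals. Of 15 fatty acid synthesis genes 2 were lower in Eif2s3y-high animals, Fasn at 0.656 (adjusted p = 0.0228) and Elovl6 at 0.687 (adjusted p = 0.00818), and 3 in Eif2s3y-low animals, Acacb at 0.830, Me1 at 0.694 and Thrsp at 0.675, with list medians of 0.884 and 0.768. Fasn, the fatty acid synthase, had the same fold of 0.656 in Eif2s3y-low animals at an adjusted p of 0.053. Of 19 drug metabolism genes 2 were higher and 1 lower in Eif2s3y-high animals, and 5 were lower in Eif2s3y-low animals. Cyp3a13 was at 1.55 (adjusted p = 0.0097) and Cyp3a11 at 0.712 (adjusted p = 0.0113) in Eif2s3y-high animals, and the glutathione transferase gene Gsta2 at 0.593 (adjusted p = 0.0255) in Eif2s3y-low animals.

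**Figure D5:**
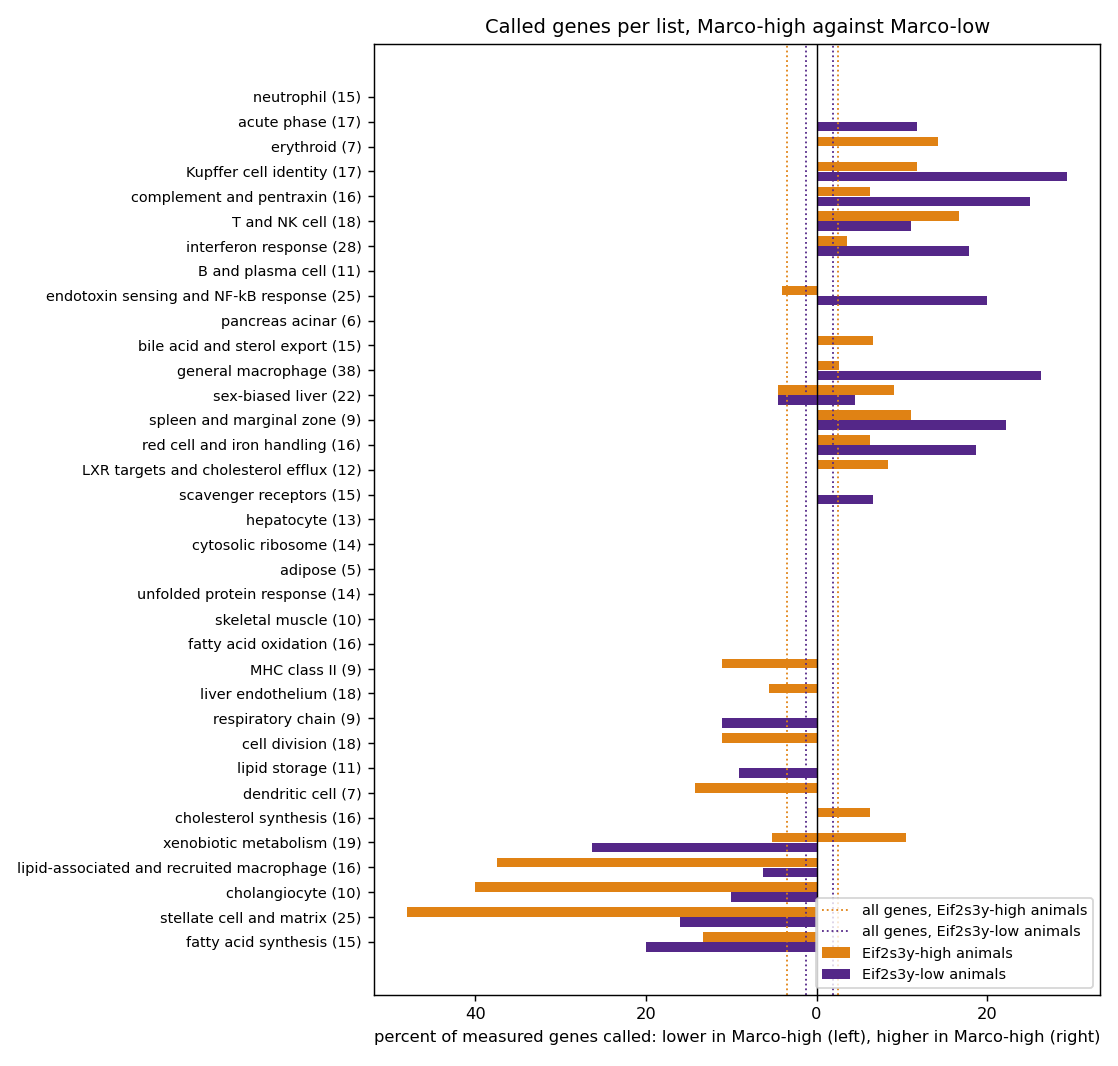
Percent of measured genes of each list called lower (left of 0) or higher (right of 0) in Marco-high than in Marco-low livers, with the number measured in brackets. Orange bars are Eif2s3y-high and purple bars Eif2s3y-low animals, and dotted lines give the percent of all genes called (2.49 and 1.91 higher, 3.49 and 1.19 lower). Matrix, recruited macrophage and bile duct lists reach farthest left, and Kupffer cell, general macrophage and complement lists lie to the right in Eif2s3y-low animals. Some genes belong to more than 1 list.

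Neighbours of Marco were called about as often as all measured genes of its chromosome, and both somewhat more often than all genes. Marco lies on chromosome 1, and of the 50 measured genes nearest to it in the RefSeq order, 4 were called in Eif2s3y-high and 2 in Eif2s3y-low animals (8% and 4%), beside 7.95% and 3.90% of all 616 measured genes of that chromosome. Of all 11386 genes 5.98% and 3.1% were called in the 2 sets. Cd55b, a regulator of complement, was called in both sets at 1.09 and 1.16.

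The number of calls moved with the choice of livers. In animals with F2 numbers up to the median of 186 and above it, taken apart within each set, the 75 shared genes had the reported direction in 4 of 4 comparisons, but these are subsets of the livers that gave the calls. Clec4f had folds of 1.44 and 1.22 in Eif2s3y-high animals with low and high numbers, and 1.49 and 1.14 in Eif2s3y-low animals, and Lum 0.714 and 0.607, then 0.663 and 0.822. Ranked anew within these subsets, the shared count was 0 in each, and without the 22 livers above a Marco ratio of 0.5 the calls were 441 in Eif2s3y-high and 8 in Eif2s3y-low animals, of which 4 were shared.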

How the data were processed

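Liver RNA of 311 mice was set against a common pool on 2-color arrays, with Cy3 for the animal and Cy5 for the pool per the labels. The authors deposited log10 ratios bounded at -2 and 2. Their normalization is not given in the sources used here, and the base of the logarithm was derived from the Eif2s3y ratio. The values were used as deposited. Probes were named from the platform's table and a RefSeq gene table (GRCm38.p6, for names and gene order only). Of 23388 probes 13645 named 1 gene, 48 several and 9695 none, and 681 kept the platform's name. A gene had to be measured on at least 95% of arrays, and its probe was the most complete one, or the earlier in the file at ties. For 1 animal the title and source name disagree on the F2 number, and the title was used.

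Marco-high and Marco-low livers were compared within each set with limma 3.58.1 in R 4.3.3 (lmFit and eBayes, two-sided, Benjamini-Hochberg over 11386 genes, Marco left out), calling an adjusted p under 0.05. The difference between sets was a contrast in 1 fit of 4 groups, and the middle livers had a slope on Marco with the set as a term. A fold is 10 to the power of the difference of mean log10 ratios, with a 95% interval. The methods were tested on simulated data. Members, gene lists and tests were chosen with earlier results of these data known. Genes named were drawn from a wider selection, and the text prints part of it, chosen with the values known. The selection held Marco, Timd4, Eif2s3y, Apoe, and the 20 highest and 20 lowest of the genes called in both sets. It also held all Kupffer, general macrophage and scavenger receptor genes, and up to 6 called genes of other lists. The 10 genes with the smallest p between sets, and neighbours of Marco called in both, were in it too. Alternatives were array centring and scaling, probe choice, other shares of livers, a slope on Marco, the Wilcoxon rank-sum test, F2 numbers, and arrays left out. Arrays carry no counts, so their number limits the precision. A p-value sets a difference against the spread between arrays, which holds differences of animals and of array handling together. Tables and figures used Python 3.11.15, numpy 2.4.6, pandas 2.3.3 and matplotlib 3.10.9.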

Additional observations from a re-analysis of the deposited data

Results flagged for a closer look

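For 3 genes the Marco difference itself differed between the sets (limma contrast, adjusted p = 0.0348 each). Trhde, a peptidase gene that inactivates thyrotropin-releasing hormone, had a fold of 1.21 (1.08 to 1.36) in Eif2s3y-high animals and 0.821 (0.731 to 0.923) in Eif2s3y-low animals, a ratio of folds of 1.48 (1.25 to 1.74). Its Marco-high and Marco-low medians were 0.0491 and -0.000449 in Eif2s3y-high animals, and -0.0706 and 0.0192 in Eif2s3y-low animals. Prpf8, a core splicing factor gene, had folds of 1.15 and 0.815 and a ratio of 1.4 (1.21 to 1.63). TLCD1, a membrane protein gene under the platform's own name, had folds of 1.12 and 0.896 and a ratio of 1.25 (1.14 to 1.37). Trhde and TLCD1 were the 2 genes called in opposite directions, and all 3 ratios of folds rest on groups that overlapped. At an unadjusted p under 0.05 the contrast held 1001 genes (8.79%), and it held 0 adjusted calls with array medians subtracted, without the 10 arrays of largest SD, or without the 11 arrays with pancreas or muscle transcripts.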

How the results depend on the processing

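No paired analysis was possible because all arrays form 1 labelled group. Of 104 gene results none reversed under an alternative, and 50 of 68 called ones kept their call in all but at most 3. These are results of genes picked for the text, many because they were called, and the alternatives drew on the same arrays. The lack of reversals is therefore no independent support. Of the 68 called results, 66 lost their call with F2 numbers up to the median, and 59 with numbers above it. In what follows counts are adjusted calls, given first for Eif2s3y-high animals, Eif2s3y-low animals and both in the same direction (681, 353 and 75 as reported), and the cause was not tested. Wider outer groups (51 and 52 livers each) gave 1842, 1054 and 346, a slope on Marco over all livers of a set 1768, 1102 and 396, and narrower ones (19 livers each) 981, 86 and 21. Scaling each array to 1 SD gave 1502 in Eif2s3y-high animals. F2 numbers up to the median gave 0, 3 and 0, and above it 218, 0 and 0, with fewer animals. Leaving out livers with Marco above 0.5, chosen after seeing the data, gave 441 and 8. Leaving out arrays with pancreas or muscle transcripts gave 43 in both. F2 number as a block gave 719, 470 and 104.

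The difference between sets (3 genes) gave 25 with wider and 20 with narrower groups, 16 with slopes, and 0 with array medians subtracted, F2 numbers up to the median, or without the 10 arrays of largest SD or those with pancreas or muscle transcripts. The middle livers (1 gene) gave 291 with narrower groups, where more animals are in the middle, 2 with the most variable probe, and 0 with scaled arrays, wider groups, either F2 range, or without pancreas or muscle arrays. General macrophage genes higher in both (1) numbered 4 with slopes and 0 with either F2 range. With probes on every array the number was 0 as well, but only 29 of the 38 genes were tested. Cd86, the 1 gene reported, was not among them, because its probe lacked 1 value. Kupffer cell genes higher in both (1) numbered 6 with slopes, 3 with wider groups, 2 with scaled arrays, and 0 with narrower groups, either F2 range or without pancreas or muscle arrays. Of all 11386 genes, 185 were higher in both with slopes, 153 with wider groups and 47 with scaled arrays. The Wilcoxon test was not run for the difference between sets or the middle livers. With slopes 4 and 20 of the 38 general macrophage genes were higher in Eif2s3y-high and Eif2s3y-low animals, beside 839 and 603 of all 11386 genes. Those called lower in Eif2s3y-high animals numbered 4 with wider groups, 2 with scaled arrays, and 1 each with slopes, with narrower groups and without pancreas or muscle arrays. Of all genes, 960, 864, 929, 580 and 423 were lower at these settings, in the same order.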
